A study of Mus musculus with 19 samples.

Results

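Expression of the Hox cluster genes was examined in mouse embryonic stem cells with and without 2 RNA-binding proteins: Trim71, which is also a ubiquitin ligase, and Lin28a, which keeps the microRNA let-7 from maturing. The genes were chosen by symbol alone (Hox, a cluster letter from a to d and a number), and 11 of the 21685 genes in the deposited table are described. The mouse annotation (GENCODE vM21, GRCm38) lists 39 such genes, and the other 28 are not described here. Of the HoxA cluster on chromosome 6, 2 of 11 genes are described (Hoxa7 and Hoxa13), and of the HoxB cluster on chromosome 11, 3 of 10 (Hoxb4, Hoxb9 and Hoxb13). Of the HoxC cluster on chromosome 15, 2 of 9 are described (Hoxc4 and Hoxc13), and of the HoxD cluster on chromosome 2, 4 of 9 (Hoxd1, Hoxd8, Hoxd9 and Hoxd13).

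Male C57BL/6 cells were grown in serum with leukaemia inhibitory factor and enriched on magnetic beads for SSEA-1, a carbohydrate antigen on the surface of undifferentiated cells. The 4 genotypes are named with the Trim71 state first: WT-WT (floxed Trim71, floxed Lin28a; 4 libraries), KO-WT (Trim71 null, floxed Lin28a; 4 libraries), WT-KO (floxed Trim71, Lin28a null; 5 libraries) and KO-KO (null for both; 5 libraries). Trim71 was deleted by exposing floxed cells to 500 nM 4-hydroxytamoxifen for 2 days, with at least 7 days of culture before harvest. The labels do not state how Lin28a was deleted, or whether undeleted cells received the drug. Lin28a-intact libraries came from clones 1 and E3 and Lin28a-null libraries from clones 1-4 and C1, so Lin28a genotype and clone cannot be told apart. The labels do not say that libraries of a genotype are separate cultures. The p-values then measure only the spread between these libraries, on the deposited scale.

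Values are log2 normalised expression as deposited, with differences between harvest days already removed, and n is 18 libraries. A further KO-WT library was left out because it held no values of its own, only the average of its group. Library depth is not known, so no counting interval is given. Mean Trim71 expression was 10.21 and 10.65 in the genotypes that carry it and 8.89 and 9.28 in those that lack it. Mean Lin28a expression was 10.13 and 9.84 against 8.47 and 8.28. The stem cell factors Pou5f1 and Sox2 had means between 11.49 and 12.84 in every genotype.

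Hox genes encode homeodomain transcription factors that set position along the body axis. Genes of the same number in different clusters are paralogues, and low numbers are generally used earlier and further towards the head than high numbers. In embryonic stem cells the clusters are held largely silent by Polycomb repressive complexes, and retinoic acid, Wnt signals and Cdx factors open them during differentiation. The clusters also contain microRNA genes of the miR-10 and miR-196 families, which are known for pairing with Hox messenger RNAs.

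Mature microRNAs were not measured in these libraries. The 3 below are shown because let-7 is the family that Lin28a holds back and because miR-10 and miR-196 are encoded inside Hox clusters. The sequences are from RefSeq (GRCm38.p6), with the seed, bases 2 to 8, in capitals. Each of the 3 has a seed of its own.
let-7a-5p: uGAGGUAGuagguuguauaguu
miR-10a-5p: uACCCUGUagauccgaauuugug
miR-196a-5p: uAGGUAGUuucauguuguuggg

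The 3′ UTR of 1 annotated transcript per gene was searched on the transcript strand for the letters that pair with each seed: CTACCTC for let-7, ACAGGGT for miR-10 and ACTACCT for miR-196. The first and the last of these motifs share letters, so 1 stretch can hold both. Of 14572 mouse 3′ UTRs of at least 100 bases, 10.7%, 14.6% and 6.82% held the let-7, miR-10 and miR-196 letters. Among the 4655 UTRs as long as those of the Hox genes (753 to 1839 bases), the shares were 9.54%, 12.7% and 5.16%. The 11 Hox UTRs held 7 such stretches in 3 genes: Hoxa7, Hoxb4 and Hoxd1. None of these letters were found in the UTRs of the other 8. A match is a description of the sequence and not evidence of binding.

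Hoxa7, a trunk-level paralogue, held 4 miR-196 matches, beginning at bases 310, 347, 479 and 500 of its 1219-base UTR. Of the UTRs of Hox length, 0.0215% held 4 or more, which is Hoxa7 alone. Hoxb4 and Hoxd1 each held 1 let-7 match, and Hoxd1 also 1 miR-10 match at base 556. The Hoxa7 stretches are shown because they are the densest run of matches to 1 seed in the 11 genes, and the Hoxb4 and Hoxd1 stretches because they are the let-7 matches.
Hoxa7, miR-196, base 310: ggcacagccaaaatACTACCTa
Hoxa7, miR-196, base 347: agaggcactcccaaACTACCTa
Hoxa7, miR-196, base 479: aaaccatgatcaatACTACCTa
Hoxa7, miR-196, base 500: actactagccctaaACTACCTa
Hoxb4, let-7, base 1207: aaccaggccccttcCTACCTCt
Hoxd1, let-7, base 492: ttaaagtggcgctcCTACCTCt

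Hox expression was low throughout. A gene was counted as expressed where 4 or more libraries reached log2 of 10 (3.32), which 14988 of 21685 genes (69.1%) met. Of the 11 Hox genes, 0 met it. Hoxb9, which acts in the thoracic region and the limb field, came closest, with 2 libraries at 3.34 and 3.36 and the rest below. The other 10 Hox genes had no library at the threshold. All Hox values lay between 0.33 and 3.36. The mean of Hoxb9 over the 18 libraries, 2.98, stood at percentile 29.3 of all genes, and that of Hoxd1, 0.43, at percentile 5.33. On the linear scale all 11 genes averaged under 10 normalised units and 7 averaged under 4. In a bulk culture, a few cells with much Hox RNA and many cells with little cannot be told apart.

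**Figure D1:**
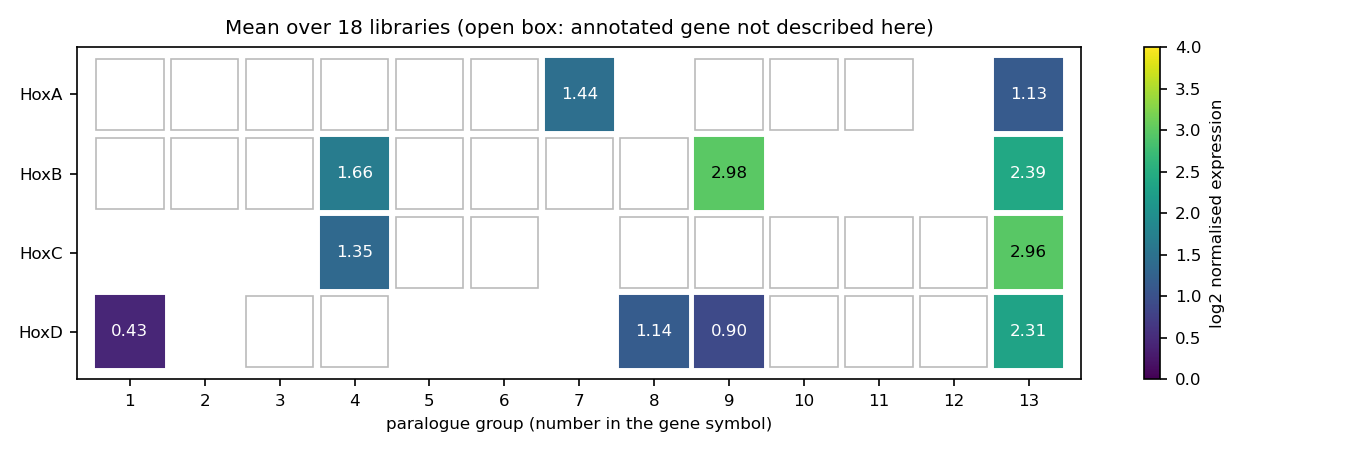
Mean log2 normalised expression over 18 libraries for the 11 Hox genes, placed by cluster (vertical axis) and paralogue number (horizontal axis), with open boxes for annotated genes not described here. Hoxb9 (2.98) and Hoxc13 (2.96) are the brightest boxes and Hoxd1 (0.43) is the darkest.

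Levels can be set between genes only per transcript length, here the log2 value minus the log2 of the longest annotated transcript's length in kilobases. This takes the values as plain log2 counts. Their transformation is not given, so the order of genes this low may depend on it. On that scale Hoxc13 was highest at 1.66, followed by Hoxb9 (1.62), Hoxb13 (1.25) and Hoxd13 (1.00). Hoxc13 and Hoxb9 differed by less than the spread between libraries of a genotype. Then came Hoxa7 (0.42), Hoxb4 (0.31) and Hoxc4 (0.27), of which neighbours again lay within that spread or close to it. Hoxa13 (-0.13), Hoxd9 (-0.20), Hoxd8 (-0.26) and Hoxd1 (-0.47) were lowest.

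The order of levels per length by position differed between clusters. In HoxD the level was highest for Hoxd13 (1.00) and lowest for Hoxd1 (-0.47). Hoxd9 (-0.20) and Hoxd8 (-0.26) lay between, within or close to the spread between libraries of a genotype. Before division by length Hoxd8 (1.14) stood above Hoxd9 (0.90). In HoxC the level per length was higher for Hoxc13 than for Hoxc4. In HoxA it was lower for Hoxa13 than for Hoxa7, and in HoxB Hoxb9 stood above Hoxb13 and Hoxb4. With 2 to 4 genes per cluster no test was made, and the limit given above for levels per length holds here too. Paralogue 13, the last expressed and most posterior group, was the only group described in all 4 clusters: per length, Hoxc13, Hoxb13 and Hoxd13 lay between 1.00 and 1.66, and Hoxa13 at -0.13. Of the paralogue 9 pair, Hoxb9 stood at 1.62 and Hoxd9 at -0.20. The paralogue 4 pair, Hoxb4 and Hoxc4, lay side by side at 0.31 and 0.27.

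The first question was how the Hox genes behaved when Trim71 was lost while Lin28a was present. Since all 11 lay under the expression threshold, they were tested in a fit without one, over all 21685 genes. After Trim71 loss with Lin28a intact, 0 of the 11 were called (limma; background 6.27%), and 1 had an unadjusted p under 0.05. That gene was Hoxc4, at 1.49, 1.43, 1.55 and 1.48 in WT-WT and 1.31, 1.36, 1.40 and 1.37 in KO-WT. Every KO-WT library lay below every WT-WT library for Hoxc4, but its difference of -0.13 ± 0.0600 had a limma adjusted p of 0.205. The 11 differences ran from -0.13 to 0.10, with a median of 0.01. For Hoxb9 the difference was -0.06, with a 95% interval from -0.27 to 0.15, and for Hoxb13 it was -0.02, from -0.21 to 0.17.

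In Lin28a-null cells, 0 of the 11 genes were called after Trim71 loss (limma; background 5.01%) and 0 had an unadjusted p under 0.05. The differences ran from -0.07 for Hoxd8 to 0.11 for Hoxb4. Hoxb4 measured 1.53, 1.67, 1.57, 1.47 and 1.42 in WT-KO and 1.64, 1.64, 1.60, 1.57 and 1.75 in KO-KO, ranges that overlap (limma adjusted p = 0.374; 95% interval from -0.02 to 0.24). The difference of Hoxb9 was also 0.11, with an interval from -0.07 to 0.29.

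The second question was how the Hox genes behaved when Lin28a was lost. Hoxb9 and Hoxb13 fell most with Trim71 intact, by 27.3% and 25.3% on the deposited scale. In Trim71-null cells they fell by 18.5% and 21.5%, and Hoxd8 by 14.3%. In all, 6 of the 11 Hox genes were called with Trim71 intact, beside 36.2% of all genes and 24.7% of the genes under the threshold. Of these, 5 were lower (Hoxb9, Hoxb13, Hoxb4, Hoxc4 and Hoxd8; background 19.1% lower) and 1 was higher (Hoxa13; background 17.1% higher). In Trim71-null cells 3 were called, all lower (Hoxb9, Hoxb13 and Hoxd8), beside 37.3% of all genes and 27.1% of those under the threshold. Of all genes 19.1% were lower there and 18.3% higher. The median difference of the 11 was -0.14 with Trim71 intact and -0.15 in Trim71-null cells, and that of all genes was within 0.01 of 0. These 2 comparisons share no library, but they set the same clones against each other and come from the same fit. They are therefore not independent. Both also share libraries with the comparisons of Trim71 loss.

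**Figure D2:**
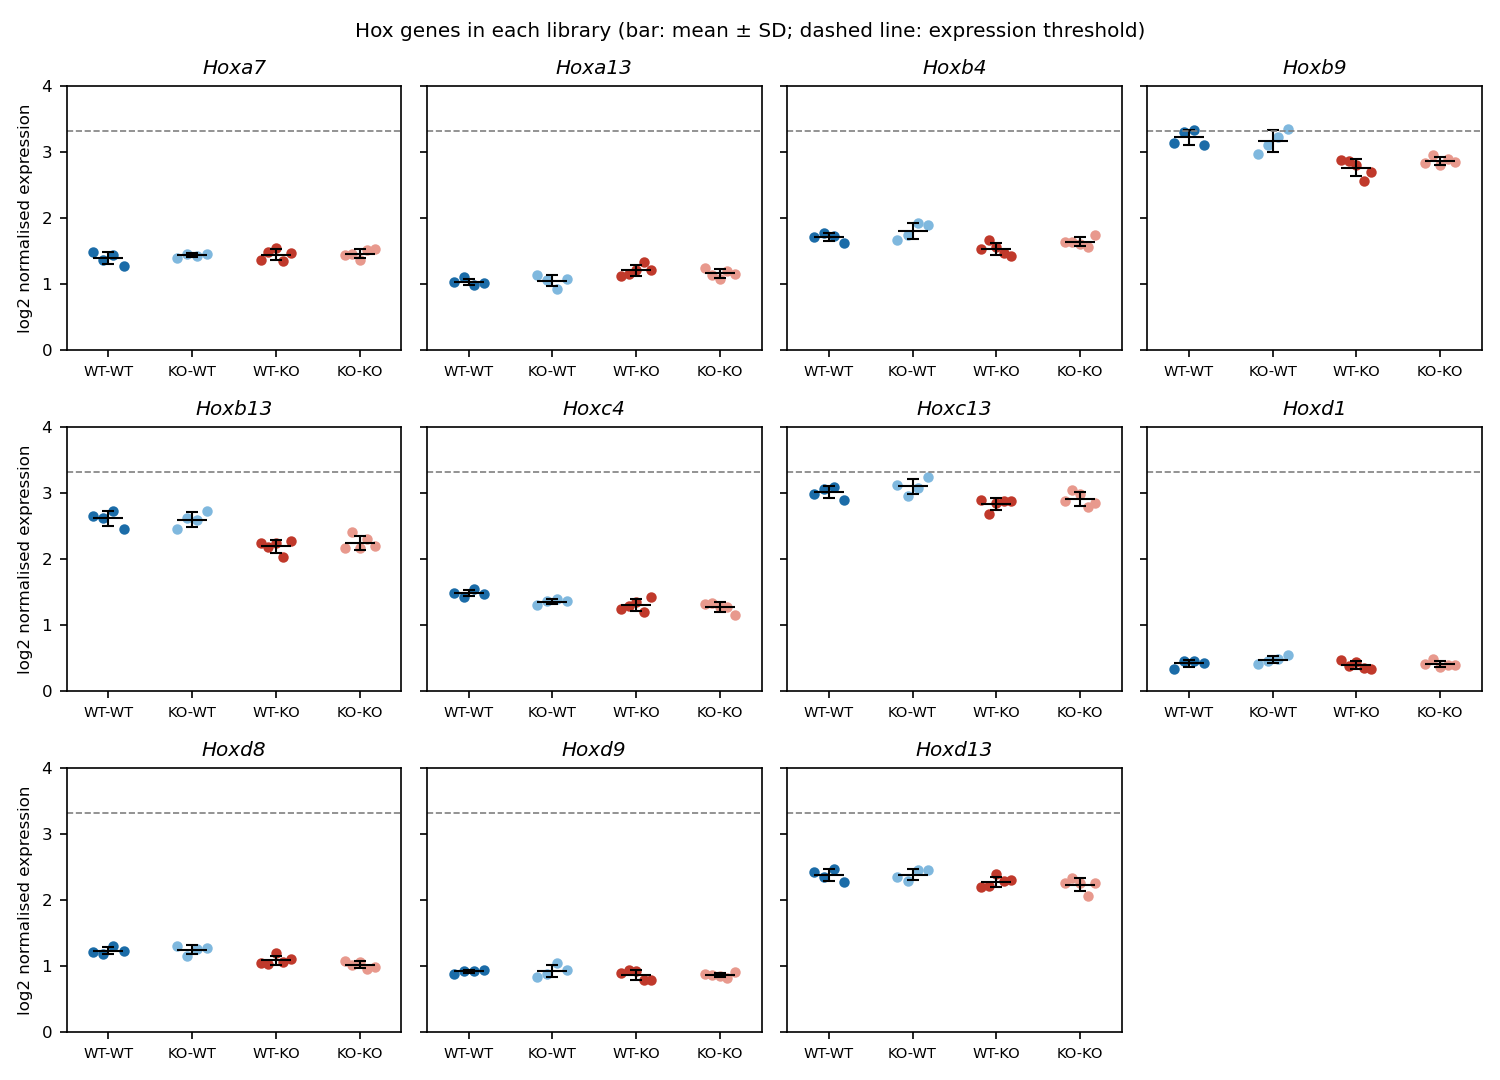
Log2 normalised expression of each Hox gene in each of 18 libraries (points), by genotype, with the mean and SD as bars and the expression threshold of 3.32 as a dashed line. Only Hoxb9 reaches the line, in 2 libraries, and Hoxb9 and Hoxb13 show no overlap between the 8 Lin28a-intact and the 10 Lin28a-null libraries.

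Hoxb9 measured 3.14, 3.30, 3.34 and 3.11 in WT-WT and 2.87, 2.86, 2.81, 2.56 and 2.71 in WT-KO. All WT-KO libraries lay below all WT-WT libraries, and the difference was -0.46 ± 0.0918 (limma adjusted p = 0.000943). In Trim71-null cells Hoxb9 measured 2.97, 3.10, 3.22 and 3.36 in KO-WT and 2.84, 2.96, 2.81, 2.89 and 2.85 in KO-KO. The highest KO-KO library lay just under the lowest KO-WT library, at 2.96 against 2.97. The difference there was -0.30 ± 0.0918 (limma adjusted p = 0.0184), and it lost its call without KO-WT replicate 3 (adjusted p = 0.0577) or KO-WT replicate 4 (adjusted p = 0.101).

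Hoxb13, the most posterior gene of its cluster and known for its part in the prostate and hindgut, measured 2.65, 2.63, 2.74 and 2.46 in WT-WT and 2.24, 2.19, 2.25, 2.03 and 2.28 in WT-KO. The groups did not overlap, and the difference was -0.42 ± 0.0824 (limma adjusted p = 0.000804). KO-WT libraries measured 2.45, 2.62, 2.60 and 2.73, and KO-KO libraries 2.17, 2.41, 2.17, 2.30 and 2.20. Again no library of one group reached the other, with a difference of -0.35 ± 0.0824 (limma adjusted p = 0.00329).

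For 2 of the 11 genes, Hoxb9 and Hoxb13, every Lin28a-intact library lay above every Lin28a-null library, as was the case for 8.09% of all genes and 5.41% of the genes under the threshold. These 2 were among the 3 Hox genes with the highest means per length. The third, Hoxc13, a gene of the hair follicle and nail, ranged from 2.90 to 3.24 in Lin28a-intact and from 2.68 to 3.05 in Lin28a-null libraries. Its differences of -0.17 ± 0.0820 and -0.19 ± 0.0820 did not pass the test (limma adjusted p = 0.107 and 0.0814).

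The smaller calls lay at lower levels. Hoxd8 measured 1.22, 1.19, 1.31 and 1.23 in WT-WT and 1.05, 1.03, 1.20, 1.07 and 1.11 in WT-KO. A single WT-KO library, at 1.20, reached the WT-WT range, and the difference was -0.14 ± 0.0501 (limma adjusted p = 0.0323). The call was lost without WT-WT replicate 1, 3 or 4 or WT-KO replicate 1, 2, 4 or 5 (highest adjusted p = 0.139). In Trim71-null cells Hoxd8 ran from 1.15 to 1.31 in KO-WT and from 0.97 to 1.09 in KO-KO, without overlap, and fell by 0.22 ± 0.0501 (limma adjusted p = 0.0023).

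Hoxc4, which acts in the neck and upper trunk, ran from 1.20 to 1.43 in WT-KO, below all WT-WT libraries given above, though the closest 2 libraries both round to 1.43. It fell by 0.18 ± 0.0555 with Trim71 intact (limma adjusted p = 0.0166), a call lost without WT-WT replicate 3, WT-KO replicate 1 or WT-KO replicate 4 (highest adjusted p = 0.0717). In Trim71-null cells, from 1.16 to 1.34 in KO-KO against 1.31 to 1.40 in KO-WT, its difference of -0.08 ± 0.0555 did not pass (limma adjusted p = 0.258). The call for Hoxb4, a paralogue known from blood stem cells, was close to the line. It ran from 1.63 to 1.78 in WT-WT and from 1.42 to 1.67 in WT-KO, which overlap, with a difference of -0.18 ± 0.0672 (limma adjusted p = 0.0472) that was lost in 12 of 18 leave-one-out fits (highest adjusted p = 0.150). Those were the fits without WT-WT replicates 1 to 3, KO-WT replicate 2, WT-KO replicates 1, 3, 4 and 5, and KO-KO replicates 1 to 4. In Trim71-null cells its difference was -0.17 ± 0.0672 (limma adjusted p = 0.0584).

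Hoxa13, needed for digits and the urogenital tract, moved the other way. It measured 1.04, 1.10, 0.99 and 1.01 in WT-WT and 1.12, 1.16, 1.22, 1.34 and 1.22 in WT-KO, with every WT-KO library above every WT-WT library. It rose by 0.17 ± 0.0557 (limma adjusted p = 0.0218), a call lost without WT-WT replicate 1, 3 or 4 or WT-KO replicate 4 (highest adjusted p = 0.0779). In Trim71-null cells the difference was 0.11 ± 0.0557 (limma adjusted p = 0.125). Of the paralogue 13 genes, then, Hoxb13 fell and Hoxa13 rose, while Hoxc13 and Hoxd13 (-0.10 ± 0.0719; limma adjusted p = 0.272) did not pass the test.

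The 4 Hox genes with no call in any comparison besides Hoxc13 were Hoxa7, Hoxd1, Hoxd9 and Hoxd13. Hoxa7 differed by 0.05 and 0.02 after Lin28a loss, Hoxd1 by -0.03 and -0.07, Hoxd9 by -0.05 and -0.06 and Hoxd13 by -0.10 and -0.15. Of the genes with a let-7 match, Hoxb4 was called lower with Trim71 intact and Hoxd1 was not called. Hoxb9, Hoxb13, Hoxc4 and Hoxd8 were called lower with no let-7 match in the UTR searched. Hoxa7, with its 4 miR-196 matches, was not called.

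**Figure D3:**
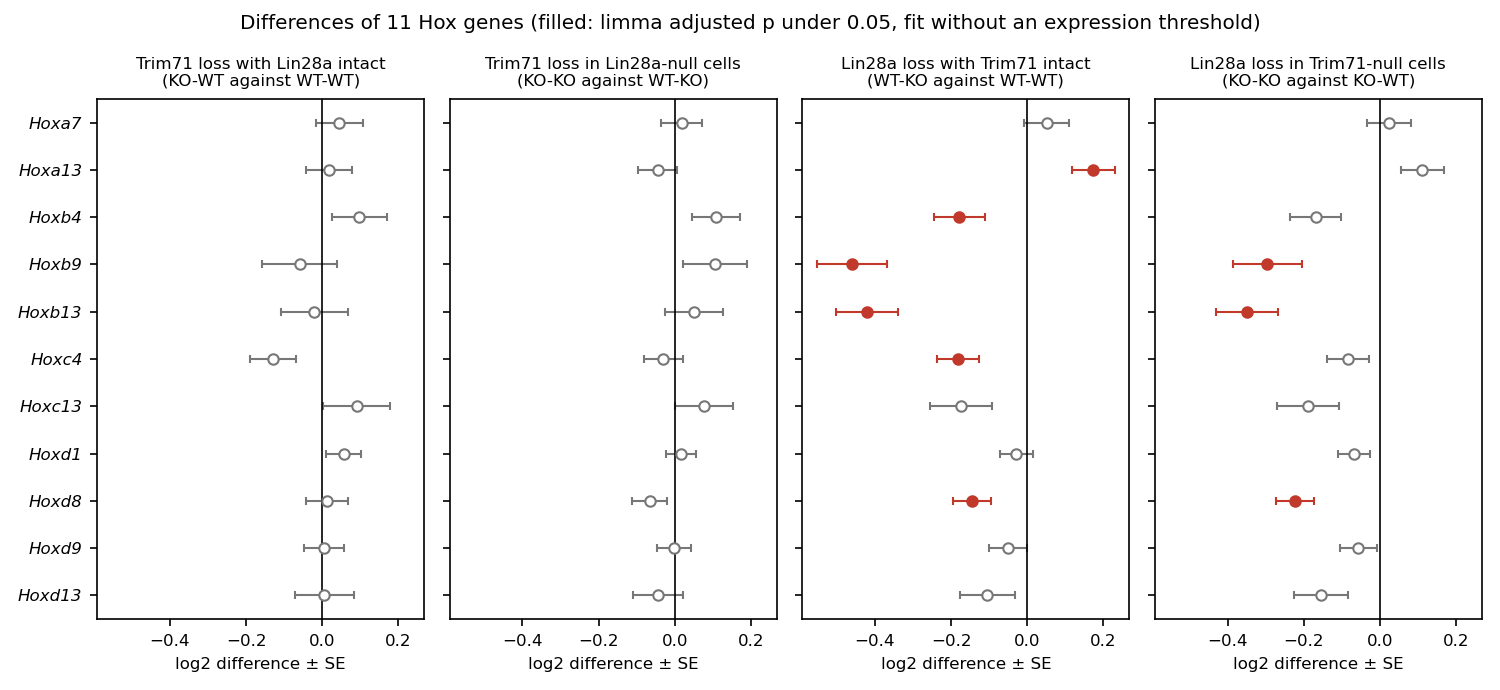
Log2 difference ± SE of the 11 Hox genes in 4 comparisons (limma fit of all 21685 genes without an expression threshold), with filled red points where the adjusted p was under 0.05. The panels for Trim71 loss hold no filled point, and those for Lin28a loss hold 6 (Trim71 intact) and 3 (Trim71 null).

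When both genes were lost (KO-KO against WT-WT, which shares libraries with the comparisons above), 4 Hox genes were called, all lower. Among all genes 39.1% were called, 21.5% lower and 17.6% higher, and among those under the threshold 27.3%. The 4 were Hoxb13 (-0.37), Hoxb9 (-0.35), Hoxc4 (-0.21) and Hoxd8 (-0.21). For the interaction, which asks whether the effect of Lin28a loss differed between Trim71 states, limma called 0 of the 11 (background 0.0138%) and 0 had an unadjusted p under 0.05. The interaction of Hoxb9 was 0.17 ± 0.131 (limma adjusted p = 0.610), with a 95% interval from -0.11 to 0.44, and that of Hoxb13 was 0.07 ± 0.117 (limma adjusted p = 0.832).

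The Lin28a comparisons were also made within each pair of clones. With Trim71 intact, Hoxb9 and Hoxb13 kept their calls in clones E3 and C1 and lost them in clones 1 and 1-4 (-0.34 and -0.29; limma adjusted p = 0.0700 and 0.0925). In Trim71-null cells Hoxb13 lost its call in clones E3 and C1 (-0.26; limma adjusted p = 0.0725). Hoxb9 lost it there in clones E3 and C1 (-0.21; limma adjusted p = 0.185) and after a correction for transcript GC and length (-0.24; limma adjusted p = 0.0541). The calls of Hoxa13, Hoxb4, Hoxc4 and Hoxd8 with Trim71 intact were lost in each clone pair alone, with differences of similar size. In clones E3 and C1 and in clones 1 and 1-4 these were 0.19 and 0.15 for Hoxa13, -0.19 and -0.19 for Hoxb4, -0.21 and -0.15 for Hoxc4, and -0.15 and -0.14 for Hoxd8. Each such fit has fewer libraries. In Trim71-null cells clones 1 and 1-4 have a single KO-WT library, replicate 4, which held the highest Hoxb9 value (3.36). The differences in that pair, -0.55 for Hoxb9, -0.56 for Hoxb13 and -0.25 for Hoxd8, rest on that library. Whether calls were kept or lost in that pair is therefore not given for Trim71-null cells. Day removal also set the clone pairs to a common level, so the clones' own levels cannot be compared.

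Whether counting used strand is not stated, so the reads of Hoxa7 and Hoxaas3, and those of Hoxd8 and Hoxd3os1, which overlap on opposite strands, cannot be told apart where they overlap. At the paralogue-13 end of the HoxB cluster the annotation places Hoxb13, the long noncoding gene Gm53, Mir196a-1 and Hoxb9 in this order. Gm53 was singled out after its values had been seen. It measured 6.33, 6.34, 6.67 and 6.36 in WT-WT and 5.60, 5.38, 5.89, 5.36 and 5.46 in WT-KO, with no overlap. Per length its mean level over all libraries was 4.40, against 1.25 for Hoxb13 and 1.62 for Hoxb9. With Trim71 intact it fell by 0.89 ± 0.134 (limma adjusted p = 7.29e-05), and where Trim71 was null by 0.70 ± 0.134 (limma adjusted p = 0.000596). The row for Mir196a-1, which holds reads from the gene of the hairpin and not the mature microRNA, averaged 2.88, 2.90, 2.22 and 2.42 in WT-WT, KO-WT, WT-KO and KO-KO. It fell by 0.66 ± 0.0780 (limma adjusted p = 6.55e-06, no threshold) and by 0.48 ± 0.0780 (limma adjusted p = 0.000166). These 4 genes were each called lower after Lin28a loss in both Trim71 states, beside 19.1% of all genes called lower in each. The share of all genes lower in both at once was not computed. The 4 were chosen with these values known. Only Hox genes and a list of other symbols were ordered, so further annotated genes may lie between them. Overlap of Gm53 with Mir196a-1 was not checked. Ttll6, the next ordered gene outward of Hoxb13, was not lower. Its means were 8.20 and 7.86 in WT-WT and KO-WT and 8.35 and 8.26 in WT-KO and KO-KO. After Trim71 loss in Lin28a-null cells Gm53 was higher by 0.42 ± 0.124 (limma adjusted p = 0.0447, and 0.0539 without a threshold), while Hoxb9 and Hoxb13 were not called.

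**Figure D4:**
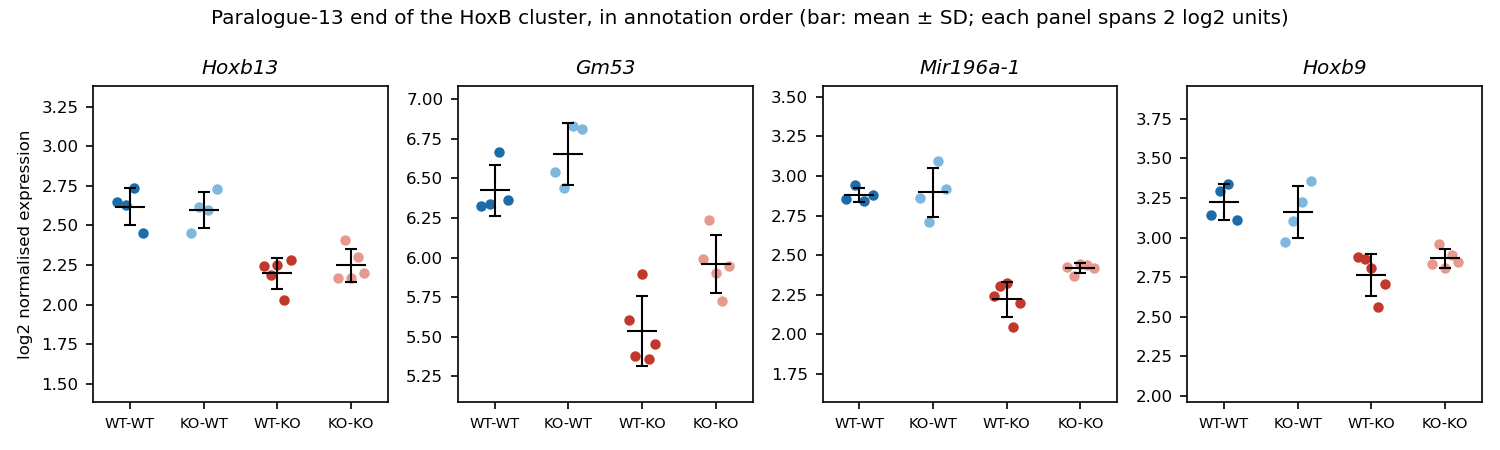
Log2 normalised expression per library (points) of 4 genes at the paralogue-13 end of the HoxB cluster, in annotation order, with mean and SD by genotype. Vertical axes have equal span (2 log2 units) but different start. In each panel the WT-KO and KO-KO points lie below the WT-WT and KO-WT points.

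After Lin28a loss the clusters' flanking genes were called in both directions with Trim71 intact, and only higher in Trim71-null cells. Of 34 flanking genes and cluster RNAs listed, 18 were in the table and 13 tested. The share called was 23.1% after Lin28a loss with Trim71 intact and 30.8% in Trim71-null cells, below the 42.4% and 42.8% of all tested genes. With Trim71 intact 2 rose, among them Hibadh (0.28 ± 0.0594; limma adjusted p = 0.00124), and 1 fell, Skap1 (-0.91 ± 0.287; limma adjusted p = 0.0179). Its WT-KO values were 2.23 and 1.85 in clone 1-4 and 2.80, 2.88 and 3.01 in clone C1, against 3.19 to 3.85 in WT-WT. In Trim71-null cells Skap1 was not called (-0.24; limma adjusted p = 0.533), and KO-KO replicate 5 stood apart at 4.21. In Trim71-null cells 4 rose, among them Ttll6, outward of Hoxb13 (0.39 ± 0.0971; limma adjusted p = 0.00382).

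Factors that act with or on Hox genes were counted from lists. After Lin28a loss 42.4% of all tested genes were called with Trim71 intact and 42.8% in Trim71-null cells. The list of TALE homeodomain partners had 37.5% called in each, and the list of inputs 46.7% and 33.3%. Neither list was far above all tested genes. Among TALE homeodomain partners, which bind DNA together with Hox proteins, 1 of 8 tested rose (Pbx3) and 2 fell (Meis1 and Pbx2) after Lin28a loss in each Trim71 state. Meis1 fell most, by 1.22 ± 0.114 (limma adjusted p = 5.26e-07) and 1.14 ± 0.114 (limma adjusted p = 1.05e-06), from a mean of 4.98 in WT-WT to 3.76 in WT-KO. The list of retinoic acid, Wnt and Cdx inputs also holds other genes, such as Zic2 and Gdf11. Among its 15 tested genes, 5 rose and 2 fell with Trim71 intact, and 3 rose and 2 fell in Trim71-null cells. These counts do not measure the strength of an input. With Trim71 intact Zic2 rose most, by 0.64, and Rara, a retinoic acid receptor, rose by 0.47 ± 0.0471 (limma adjusted p = 1.19e-06). Wnt3, a primitive streak signal, fell by 0.41 ± 0.104 (limma adjusted p = 0.00475), while Wnt3a rose by 0.36 ± 0.109 (limma adjusted p = 0.0144).

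Of 12 genes of Polycomb complex PRC2, which lays down H3K27 methylation, 1 rose and 6 fell with Trim71 intact, and 1 rose and 3 fell in Trim71-null cells. The accessory subunit Aebp2 fell by 0.47 ± 0.0610 (limma adjusted p = 1.75e-05) and by 0.21 ± 0.0610 (limma adjusted p = 0.0099). Of 19 PRC1 genes, 2 rose and 6 fell in each Trim71 state. The chromodomain subunit Cbx8 fell by 0.93 ± 0.145 (limma adjusted p = 0.000104) and 0.67 ± 0.145 (limma adjusted p = 0.00164). Of 12 Trithorax and H3K27 demethylase genes, which oppose Polycomb, 5 rose and 1 fell with Trim71 intact, and 7 rose and 2 fell in Trim71-null cells, with Rbbp5 highest at 0.53 ± 0.0446 and 0.60 ± 0.0446. Among the 11 tested homeobox genes outside the clusters, 2 rose and 4 fell with Trim71 intact, and 3 rose and 5 fell in Trim71-null cells. Dlx3, Msx2 and Otx2 fell by between 0.90 and 1.09 in the 2 comparisons. These shares are to be read against the 42.4% and 42.8% of all tested genes called.

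Summed markers of stem cells and mesoderm did not overlap between the Lin28a states, and those of fibroblasts and neural cells did. How often sums of other lists fail to overlap was not computed. Of single genes, 8.09% had every Lin28a-intact library above every Lin28a-null library, the direction of the mesoderm sum. The summed level of 11 stem cell markers (values returned to the linear scale) ran from 40276 to 45906 in Lin28a-intact and from 49452 to 57261 in Lin28a-null libraries. Among the 10 stem cell markers tested, 7 rose with Trim71 intact and 5 in Trim71-null cells. In all, 80% and 60% of them were called, beside 42.4% and 42.8% of all tested genes. In each state 1 was called lower, Dppa4 (-0.15 and -0.13). Fut4, under the threshold, averaged 3.27 and 3.21 in WT-WT and KO-WT and 2.88 in WT-KO and KO-KO. The summed level of the 7 mesoderm markers in the table, of 10 listed, ran from 264 to 342 against 129 to 161. Hand1 (means of 6.64 in WT-WT and 3.76 in WT-KO) and Gata4 (6.44 and 4.84) were lower in Lin28a-null cells. They had the highest WT-WT means of the 7, so they weigh most in that sum. With Trim71 intact Kdr also fell, by 0.27, and Mesp2 rose by 0.26 ± 0.0771 (limma adjusted p = 0.0117). Eomes (5.30 in WT-WT and 5.43 in WT-KO), Tbx6 (3.66 and 3.76) and Mixl1 (2.12 and 2.18) were not lower in WT-KO. Of the 6 mesoderm markers tested, 1 rose and 3 fell in each Trim71 state, with a median of -0.08 with Trim71 intact. The 6 fibroblast markers in the table, of 12, summed to between 147 and 173 against 116 and 151, and the 8 neural markers, of 10, to between 841 and 982 against 947 and 1132. Of the 5 fibroblast markers tested, 1 rose (Fbn1, by 0.44 and 0.85) and 2 fell (Col1a1 and Col1a2) in each Trim71 state, with Col1a2 lower by -1.88 and -1.38. Of the 6 neural markers tested, 3 rose (Tubb3, Map2 and Pax6) in each, and 2 fell with Trim71 intact (Nes, by 0.48, and Olig2, by 0.26) and 1 in Trim71-null cells (Olig2). The share called was 66.7% in each state for mesoderm markers and 60% in each for fibroblast markers. For neural markers it was 83.3% and 66.7%. These too stand beside 42.4% and 42.8% of all tested genes. With 5 to 10 tested genes per list, 1 gene moves a share much. No list's sum was near 0, and the part of these cells or states in the Hox differences was not tested.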

How the data were processed

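Total RNA libraries (Illumina TruSeq, paired-end, per the labels' protocols) were made from 19 samples, with 18 analysed. CASAVA 1.8, STAR and DESeq2 are named in the submitters' processing notes. Their settings, the genome build, the annotation and the transformation of the values are not given in the sources used here. The authors deposited 1 table on a log2 scale (lowest value -0.71, highest 16.30), as read from the values. Fold sizes, SE and adjusted p therefore apply to that scale alone, which may compress both the differences and the spread of low genes. The SD of a Hox gene within a genotype ran from 0.0221 (Hoxd9 in WT-WT) to 0.164 (Hoxb9 in KO-WT). How this spread relates to that of the read counts was not tested.

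Day effects had been removed from the deposited values: the largest day term was 1.7e-08, against 1.89 after days were shuffled. The left-out KO-WT library (replicate 5), alone on its day, matched the mean of the others within 1.5e-08. The labels' day pairs libraries across genotypes. A check of the pairing by correlation could not be made, since the day effect was gone.

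Genotype and day were fitted over all 4 genotypes with limma 3.58.1 (R 4.3.3; eBayes with trend), with 10 residual degrees of freedom. Genes had to reach log2 of 10 in at least 4 libraries (14988 genes). Calls had a Benjamini-Hochberg adjusted p under 0.05 over all genes tested. A fit of all 21685 genes was added because all Hox genes described lay under the threshold. A gene matching the rule and a listed gene are not reported here. The fits were also run on simulated data with planted changes. The smallest planted change was larger than several of the Hox differences called, and the outcome is not given here. Hox genes called in a comparison were named with their values, and up to 3 called members per direction of other lists could be named. The Hox genes, lists and tests were chosen with earlier results of these data known. Mature miRNAs came from RefSeq and 3′ UTRs from GENCODE vM21.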

Additional observations from a re-analysis of the deposited data

Results flagged for a closer look

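In the WT-KO group, Hoxc13 in replicate 2 measured 2.68 log2 units, apart from the other 4 libraries, the nearest of which was at 2.85. The gap made up 0.814 of the range of the group. Of 44 groups of Hox values checked this was the only one with such a library. Chance gives about 1 in 20 groups, so 1 of 44 is no more than chance would give.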

How the results depend on the processing

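No alternative reversed the direction of a Hox difference that was followed. With the threshold no Hox gene described could be tested, so those counts have no value, and the counts below come from the fit without one (chosen after seeing the data). Lin28a loss with Trim71 intact called 6 Hox genes, but 2 in clones E3 and C1, 0 in clones 1 and 1-4, and 2 to 6 when each library was left out: 2 without WT-WT replicate 3 or WT-KO replicate 4, and 3 without WT-WT replicate 1 or WT-KO replicate 1. In Trim71-null cells 3 were called, but 1 in clones E3 and C1 and 2 to 4 with a library left out. Clones 1 and 1-4 have a single KO-WT library there, so no count is given. Loss of both called 4, but 2 in clones E3 and C1, 1 in clones 1 and 1-4, and 4 to 5 with a library left out. Without the replicate block of day, the fit for Lin28a loss in Trim71-null cells called 6 in place of 3, and the counts of the other comparisons stayed within 1.5 times; the day term was kept because day removal had used up those degrees of freedom. Apart from fewer libraries in the subsets, the cause was not tested. The count for both comparisons of Trim71 loss and for the interaction was 0 in all alternatives and leave-one-out fits run. The number of expressed Hox genes was 0, but 1 with the threshold in 1 library. Hoxb13 and Hoxb9 with Trim71 intact kept their calls in all 18 leave-one-out fits, and Hoxd8 lost its call in 7 of the 18 and Hoxc4 in 3. Calls with Trim71 intact were also lost under scaling to the 75th percentile (Hoxb4, adjusted p = 0.0877; Hoxd8, 0.0620), eBayes without trend (Hoxb4, 0.0562), the 3 days with all 4 genotypes (Hoxc4, 0.105; Hoxd8, 0.167) and a fit of the compared genotypes alone (Hoxd8, 0.0682). Depth is unknown, and values this low limit the size of difference that can be seen.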
